A study of Homo sapiens with 12 samples.

Results

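Genes of the ERBB signaling system were taken from the deposited expression table by gene name, as the rows EGFR, ERBB2, ERBB3, AREG, EREG, TGFA, HBEGF, BTC, EPGN and NRG1, which gave 10 of the 58302 genes of the table. They comprise 3 receptor genes and 7 ligand genes. Expression was measured by RNA sequencing in 12 libraries, 3 from each of 4 groups, in pancreatic cancer (PC) cell lines. BxPC-3 and CFPAC-1 were the parental lines, sensitive to the nucleoside analog gemcitabine (GEM). Their derivatives BxPC-3-GR and CFPAC-1-GR, selected under GEM exposure raised in steps, were labelled resistant. The study calls this exposure continuous, while its methods describe timed treatments with regrowth in GEM-free medium before the final stage. The study's methods give higher GEM doses for BxPC-3 than for CFPAC-1, in the steps and at the end. A difference between the lines in their response thus cannot be told apart from the dose. The labels gave BxPC-3-GR a mesenchymal morphology and the other 3 lines an epithelial one. All 4 lines were grown with fetal bovine serum; the labels name RPMI 1640 for every line, whereas the study's methods name another medium for CFPAC-1. There was 1 resistant line for each parental line. The labels do not say that the 3 libraries of a group came from separate cultures, so the p-values below measure only the spread between these libraries, which may be technical.

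ERBB receptors are receptor tyrosine kinases of the cell surface that pair with each other when a ligand binds. AREG, EREG, TGFA, HBEGF, BTC and EPGN encode ligands of EGFR, and NRG1 encodes neuregulin, a ligand of ERBB3. ERBB2 has no known ligand of its own and acts as a partner, and ERBB3 has little kinase activity and signals through its partners. The ligands are made as membrane-bound precursors that ADAM proteases release, and the receptors signal through RAS, MAPK and PI3K. In pancreatic duct cells this system is known to promote growth.

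The ligands share the EGF-like motif, a stretch held together by 6 cysteines that touches the receptor, and the coding bases of that stretch are shown to let the 6 EGFR ligands be compared. Bases run 5′ to 3′ from the first to the last cysteine codon, with the cysteine codons in capitals, and were read from GENCODE 29 transcripts (GRCh38).
AREG: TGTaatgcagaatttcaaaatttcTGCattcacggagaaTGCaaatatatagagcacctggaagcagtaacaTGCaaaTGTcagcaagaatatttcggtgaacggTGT
EREG: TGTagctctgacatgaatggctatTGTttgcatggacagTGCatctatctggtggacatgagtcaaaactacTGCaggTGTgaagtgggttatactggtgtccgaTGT
TGFA: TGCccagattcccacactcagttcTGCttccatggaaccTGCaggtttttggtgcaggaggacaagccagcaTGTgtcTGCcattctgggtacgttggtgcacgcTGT
HBEGF: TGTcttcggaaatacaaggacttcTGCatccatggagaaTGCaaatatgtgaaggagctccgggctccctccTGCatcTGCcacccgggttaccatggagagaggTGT
BTC: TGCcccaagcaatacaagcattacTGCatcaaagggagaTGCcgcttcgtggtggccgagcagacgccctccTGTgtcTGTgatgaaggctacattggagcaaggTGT
EPGN: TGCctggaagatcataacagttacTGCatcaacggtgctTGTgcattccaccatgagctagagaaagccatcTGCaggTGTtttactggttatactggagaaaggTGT
Each stretch had 108 bases coding for 36 residues, with 7, 4, 10, 1 and 8 residues between successive cysteines, and each lay on 2 exons. NRG1 had the same order of cysteines with a longer stretch of 40 residues, and 5 and 13 residues in the second and the third gap. Among the 6 EGFR ligands, AREG and HBEGF coded for the same residue at 19 of 36 positions, as did TGFA and BTC, and AREG and BTC at 11 of 36. These counts include the 6 cysteines, which defined the stretch and so match in every pair. The stretches spanned chr4:74449172-74450410 for AREG, chr4:74381061-74382675 for EREG and chr4:74312229-74313048 for EPGN on the plus strand. They spanned chr2:70456458-70465692 for TGFA, chr5:140335997-140342711 for HBEGF and chr4:74750689-74755935 for BTC on the minus strand.

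The values were FPKM, fragment counts scaled by library size and by gene length, so that levels of different genes in a library can be set side by side. The value of 1 fragment in the low genes implied a depth of 12700000 to 25300000 fragments per library. The 6 epithelial marker genes (EPCAM, CDH1, KRT7, KRT8, KRT18, KRT19) summed to at least 838 FPKM in every library. PTPRC (leukocytes) and INS (islets) were at 0 in all 12 libraries, and COL1A2 (fibroblasts) did not exceed 0.0104 FPKM. Other markers of these lists were not absent. Group means of COL1A1 (fibroblasts) were 3.02 FPKM (CFPAC-1-GR), 1.49 (CFPAC-1), 1.09 (BxPC-3-GR) and 0.727 (BxPC-3). PDGFRB (fibroblasts) had 0.485 to 0.779 FPKM over the CFPAC-1 pair, and at most 0.0039 over the BxPC-3 pair. PRSS1 (acinar cells) had 0.612 to 0.716 FPKM in BxPC-3-GR and at most 0.219 elsewhere. The source of these transcripts was not tested. Of the 4 mesenchymal markers, VIM had 0.686 to 0.891 FPKM in the BxPC-3-GR libraries, labelled mesenchymal, and 5.51 to 7.25 in BxPC-3. CDH2 and FN1 went the other way, with CDH2 at 4.86 to 6.35 FPKM in BxPC-3-GR and 1.57 to 2.32 in BxPC-3 (log2FC 1.10), and FN1 at 8.82 to 9.33 and 5.11 to 5.50 (0.68), so that 2 of the 3 tested markers rose by limma. ZEB1 did not exceed 0.197 FPKM in any library. The epithelial sum ranged from 2636 to 2914 FPKM for CFPAC-1 and from 1155 to 1347 FPKM for CFPAC-1-GR, and 838 to 917 in BxPC-3 and 945 to 1012 in BxPC-3-GR; its part in the results was not tested. CD68, listed as a leukocyte marker, had up to 36.9 FPKM in CFPAC-1 beside PTPRC at 0. All 4 groups therefore expressed the epithelial markers, including BxPC-3-GR with its mesenchymal label. Spearman's rho of log2FC with gene GC content was -0.777 in the CFPAC-1-GR against CFPAC-1 comparison, over 12030 genes that are no independent replicates. It was 0.0388 for BxPC-3-GR against BxPC-3, 0.628 in CFPAC-1 against BxPC-3 and -0.0189 in CFPAC-1-GR against BxPC-3-GR. For that reason log2FC values of the members are also given after the log ratios were adjusted for GC content and gene length, called the GC correction below.

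**Figure D1:**
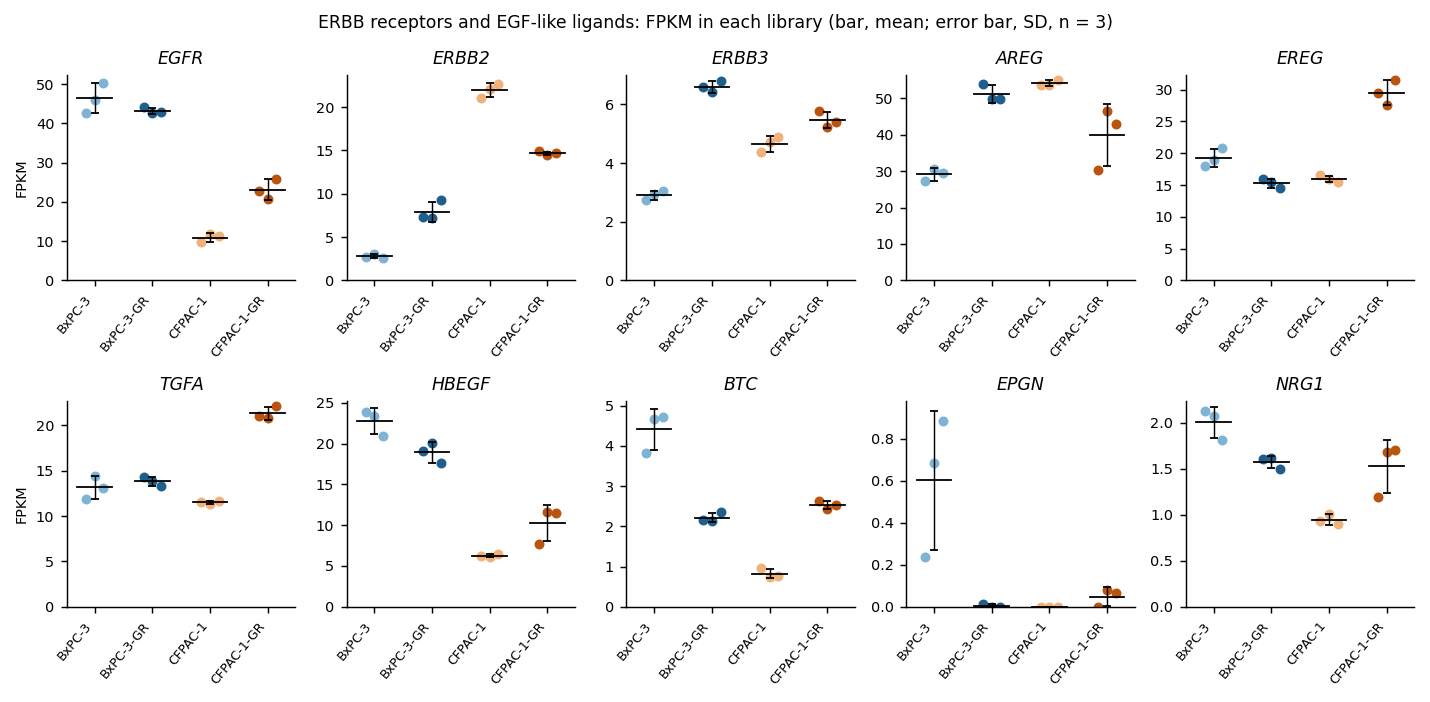
FPKM of each of the 10 genes (vertical axis, linear from 0, its own scale per panel) in the 4 groups (horizontal axis). Points are the 3 libraries of a group, the bar is their mean and the error bar the SD; EGFR had 9.68 to 11.8 FPKM in CFPAC-1 and over 42 in every BxPC-3 and BxPC-3-GR library, and ERBB2 had the opposite order.

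The first question was which members changed with GEM resistance in each line. log2FC is the difference of the means of log2(FPKM + 1), and understates the change of low genes. A gene rose or fell where limma's adjusted p was below 0.05, and it was called significantly differentially expressed (SDE) where log2FC also passed 1 in size. In BxPC-3-GR, 9 members were tested, and 3 rose (ERBB2, ERBB3, AREG), 4 fell (EREG, HBEGF, BTC, NRG1) and 2 did not pass (EGFR, TGFA). Of all 11710 genes tested there, 26.2% rose and 31.5% fell. One member, ERBB2, was SDE up and none was SDE down, against 4.14% and 3.62% of all genes. In CFPAC-1-GR, 7 members rose (EGFR, ERBB3, EREG, TGFA, HBEGF, BTC, NRG1) and 2 fell (ERBB2, AREG), against 44.6% and 34.9% of the 12051 genes tested. One member, EGFR, was SDE up and none was SDE down, against 20.5% and 11.7%. BTC and NRG1 passed the low-value filter (1 FPKM or more on average over the 6 libraries compared) in the CFPAC-1 pair only through CFPAC-1-GR, so they add no support to that count. EPGN was under the filter in every comparison. ERBB3 rose in both resistant lines, a call that in the CFPAC-1 pair depends on the scaling, as given below. Of the 9, 6 passed in opposite directions in the 2 lines (ERBB2, AREG, EREG, HBEGF, BTC, NRG1), as did 25.4% of the 10393 genes tested in both. After the GC correction 4 did (EGFR, AREG, HBEGF, BTC), against 19.6% of all genes. For the filter reason given above, BTC and NRG1 add no support to these tallies of opposite directions either. The control libraries differ between these lines, so the counts do not share samples.

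**Figure D2:**
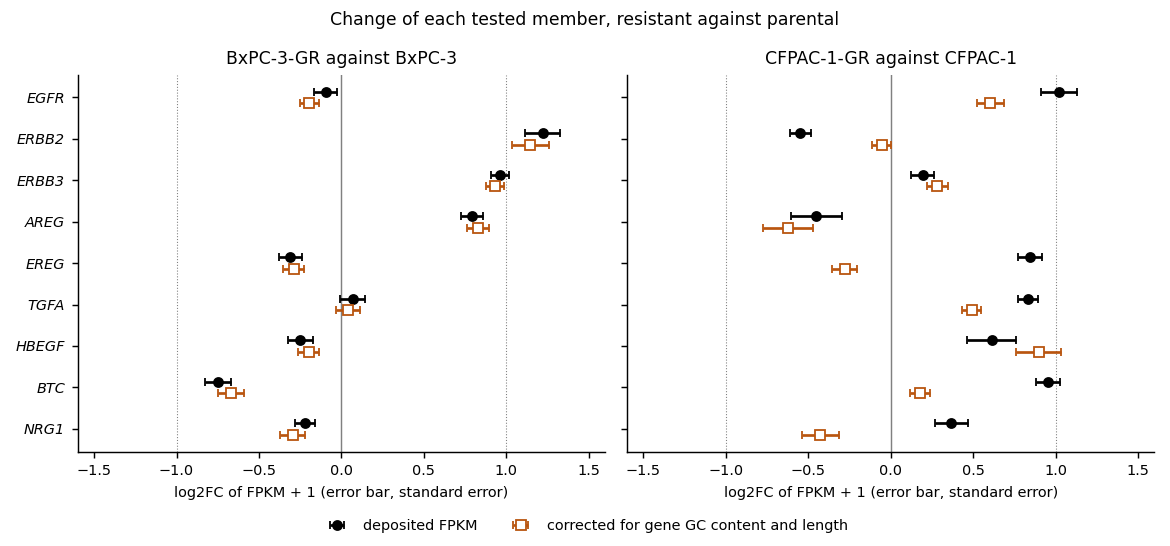
log2FC of each tested member (horizontal axis, log2 of FPKM + 1, resistant against parental) with its standard error, for the deposited FPKM (filled circles) and after the GC correction (open squares). The symbols of a gene lie within 0.10 of each other in the BxPC-3 pair, and in the CFPAC-1 pair EREG and NRG1 cross 0.

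EGFR (chr7:55019021-55211628, GRCh38, plus strand), the receptor of most ligands above, had 42.8, 46.0 and 50.4 FPKM in the BxPC-3 libraries and 44.2, 42.7 and 42.9 in BxPC-3-GR. These groups overlapped, and the log2FC of -0.10 (standard error 0.07) did not pass limma's test (adjusted p = 0.28, 95% interval -0.27 to 0.07). After the GC correction it was -0.19, which passed (adjusted p = 0.027). The CFPAC-1 libraries had 9.68, 11.8 and 11.2 FPKM and the CFPAC-1-GR libraries 22.8, 20.8 and 25.9. Every CFPAC-1-GR library was above every CFPAC-1 library. The mean was 2.13-fold higher in CFPAC-1-GR, and limma gave a log2FC of 1.02 (standard error 0.11, adjusted p = 0.00011), or 0.60 after the GC correction. The SDE call was lost with that correction, with either scaling below and without CFPAC-1-GR replicate 3 or CFPAC-1 replicate 1 (log2FC 0.94 each), while the direction was kept. EGFR was the most abundant of the 10 genes in BxPC-3 (46.4 ± 3.84 FPKM, SD, n = 3), and in CFPAC-1 it ranked below AREG, ERBB2, EREG and TGFA (10.9 ± 1.10), with libraries that overlapped those of TGFA.

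ERBB2 (chr17:39687914-39730426, plus strand), the partner receptor, had 2.70, 3.10 and 2.61 FPKM in BxPC-3 and 7.31, 7.16 and 9.23 in BxPC-3-GR. The groups did not overlap, and the mean was 2.82-fold higher in BxPC-3-GR (log2FC 1.22, standard error 0.11, adjusted p = 0.000192 from limma). In the CFPAC-1 libraries the values were 21.1, 22.1 and 22.7 FPKM, and in CFPAC-1-GR 14.9, 14.5 and 14.7. Here every resistant library was below every parental one. ERBB2 fell by 0.55 on the log2 scale (standard error 0.06, adjusted p = 0.000159 from limma), and after the GC correction the log2FC was -0.05 (adjusted p = 0.45), which did not pass. With upper-quartile scaling it was -1.02, past the SDE size. The gene body of ERBB2 overlaps MIEN1 and PGAP3 on the other strand. MIEN1 had 3.46 FPKM on average in BxPC-3, 2.50 in BxPC-3-GR, 15.9 in CFPAC-1 and 5.42 in CFPAC-1-GR, and PGAP3 had 0.671, 1.24, 5.09 and 2.67. Whether the counting used strand is not given in the sources used here, so fragments of these genes in the overlap cannot be told apart.

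ERBB3 (chr12:56079857-56103505, plus strand), the neuregulin receptor with little kinase activity, had 2.73, 2.94 and 3.04 FPKM in BxPC-3 and 6.58, 6.41 and 6.81 in BxPC-3-GR. The groups did not overlap, the mean was 2.27-fold higher, and the log2FC in limma was 0.96 (standard error 0.05, adjusted p = 3.99e-05), just under the SDE size. CFPAC-1 had 4.36, 4.71 and 4.89 FPKM and CFPAC-1-GR had 5.78, 5.23 and 5.39. The log2FC there was 0.19 (standard error 0.07, adjusted p = 0.040 from limma; 0.052 to 0.109 without any of 5 libraries in turn), and its direction flipped with median-of-ratios scaling (-0.07) and upper-quartile scaling (-0.23). These scalings moved the median log2FC of all genes in the CFPAC-1 pair from 0.13 to -0.14 and -0.29. ERBB3 therefore lay close to the median of all genes there, and above it in BxPC-3-GR (median -0.05).

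The ratios of 2 receptors within a library do not depend on library scaling, though they can depend on GC content (47.5% for EGFR, 57.5% for ERBB2 and 52.0% for ERBB3). The log2 ratio of EGFR to ERBB2 was 3.99, 3.89 and 4.27 in BxPC-3 and 2.60, 2.58 and 2.21 in BxPC-3-GR. In CFPAC-1 it was -1.12, -0.90 and -1.01, and in CFPAC-1-GR 0.61, 0.52 and 0.82. EGFR thus exceeded ERBB2 in 9 of 12 libraries, and CFPAC-1 was the group with the reverse order. The ratio was lower by 1.59 in BxPC-3-GR and higher by 1.67 in CFPAC-1-GR, without overlap in either line (2-sided exact permutation test, p = 0.10 for each, the smallest that 3 against 3 libraries allow). The log2 ratio of EGFR to ERBB3 moved the same way, from 4.00 ± 0.05 to 2.71 ± 0.05 (SD, n = 3, exact permutation p = 0.10) in the BxPC-3 pair and from 1.22 ± 0.09 to 2.08 ± 0.16 (exact permutation p = 0.10) in the CFPAC-1 pair. ERBB2 to ERBB3 was near 0 in BxPC-3 (-0.05 ± 0.15) and at 0.25 ± 0.16 in BxPC-3-GR. It was 2.24 ± 0.03 in CFPAC-1 and 1.43 ± 0.06 in CFPAC-1-GR. The GC correction left the BxPC-3 pair much as it was and lowered the shifts of the CFPAC-1 pair. On the log2(FPKM + 1) scale the log2FC of EGFR minus that of ERBB2 was -1.32 in BxPC-3-GR and -1.34 after the correction, and 1.57 in CFPAC-1-GR and 0.66 after it. For EGFR minus ERBB3 in CFPAC-1-GR the values were 0.83 and 0.32, and for ERBB2 minus ERBB3 they were -0.74 and -0.33. As shares of the summed receptor FPKM, EGFR was 89.0% in BxPC-3, 74.9% in BxPC-3-GR, 29.03% in CFPAC-1 and 53.4% in CFPAC-1-GR. The shares of the 2 resistant lines thus lay between those of the 2 parental lines.

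**Figure D3:**
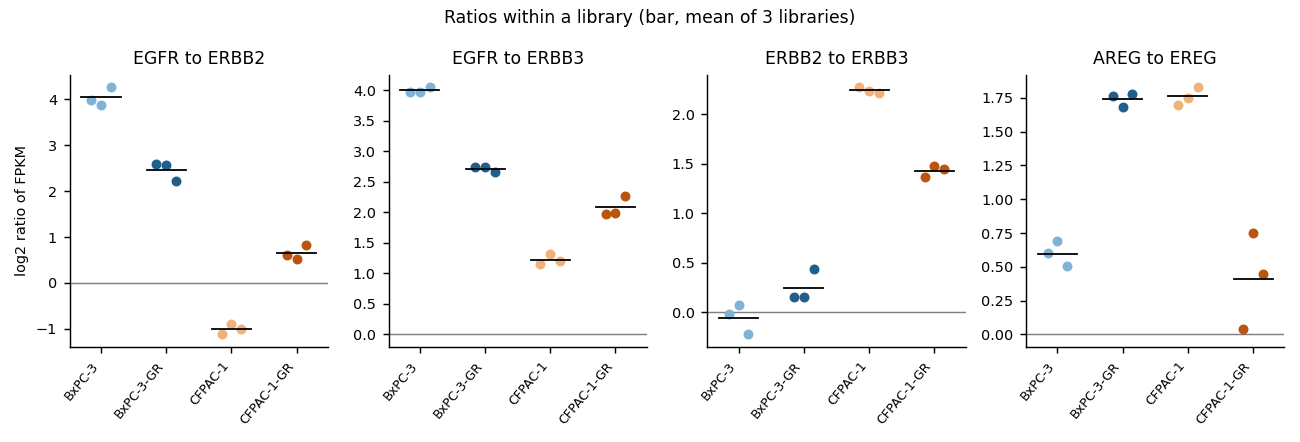
log2 ratio of FPKM of the named gene pairs (vertical axis) in each library of the 4 groups (horizontal axis), with the mean of 3 libraries as a bar and a line at 0, where both genes are equal. Within each line, resistant and parental libraries do not overlap in any of the 4 panels, and the EGFR to ERBB2 ratio lies below 0 in the 3 CFPAC-1 libraries. Across lines, the AREG to EREG ratios of BxPC-3-GR overlap those of CFPAC-1, and those of CFPAC-1-GR overlap those of BxPC-3.

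AREG encodes amphiregulin, a ligand of EGFR that binds it with low affinity. It lies at chr4:74445134-74455009 (plus strand), 56.4 kb from EREG, which encodes epiregulin (chr4:74365143-74388751). EPGN (chr4:74308473-74315307) lies on the other side of EREG, and BTC (chr4:74744759-74794686, minus strand) is 290 kb from AREG, so that 4 of the 7 ligand genes lie within 486 kb. The bases before the RefSeq start of the neighbours AREG and EREG are shown because these genes moved apart in both lines as deposited, with matches to the CRE (TGACGTCA) and TATA box (TATAAA) letters in capitals. Each runs 250 bases up to the start, 5′ to 3′ on the plus strand (GRCh38.p14), at chr4:74444886-74445135 for AREG and chr4:74364895-74365144 for EREG.
AREG: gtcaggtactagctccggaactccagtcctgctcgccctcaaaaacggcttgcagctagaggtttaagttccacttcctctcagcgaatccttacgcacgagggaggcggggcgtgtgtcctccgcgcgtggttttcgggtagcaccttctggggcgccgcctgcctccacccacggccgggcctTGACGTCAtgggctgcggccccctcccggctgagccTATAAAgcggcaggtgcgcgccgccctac
EREG: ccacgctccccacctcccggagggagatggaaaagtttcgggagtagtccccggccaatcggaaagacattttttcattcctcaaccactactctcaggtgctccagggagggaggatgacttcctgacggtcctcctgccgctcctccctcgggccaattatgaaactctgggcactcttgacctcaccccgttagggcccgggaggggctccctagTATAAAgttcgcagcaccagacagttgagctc
The AREG window held TGACGTCA, which reads the same on both strands, beginning 65 bases before the start, and a TATAAA at 29 bases. The EREG window held a TATAAA at 32 bases, and neither window held TGANTCA, the AP-1 letters. Searched on both strands, TGACGTCA was in 1.65%, TATAAA in 10.7% and TGANTCA in 6.57% of the 35116 windows of this length in the RefSeq table. A match is a description of the letters and not a bound site, and no match says only that the letters are not in the window.

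AREG had 27.2, 30.5 and 29.4 FPKM in BxPC-3 and 53.8, 49.8 and 49.7 in BxPC-3-GR. The groups did not overlap, the mean was 1.76-fold higher, and the log2FC was 0.79 (standard error 0.06, adjusted p = 0.000153 from limma). In CFPAC-1 it had 53.7, 53.5 and 55.1 FPKM and in CFPAC-1-GR 30.3, 46.5 and 43.0. All 3 resistant libraries were lower, and replicate 1 was the lowest by over 12 FPKM. AREG fell by 0.45 on the log2 scale (standard error 0.15, adjusted p = 0.030 from limma), with -0.62 after the GC correction. The call was lost without a filter on low genes (adjusted p = 0.074 from limma) and without any of the CFPAC-1 libraries in turn (adjusted p from 0.065 to 0.073). AREG was the most abundant of the 7 ligands in all 4 groups, though in CFPAC-1-GR its libraries overlapped those of EREG.

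EREG had 18.0, 18.9 and 20.8 FPKM in BxPC-3 and 15.9, 15.5 and 14.5 in BxPC-3-GR. The groups did not overlap, and EREG fell by 0.31 on the log2 scale (standard error 0.07, adjusted p = 0.0098 from limma). The CFPAC-1 libraries had 16.5, 15.9 and 15.5 FPKM and the CFPAC-1-GR libraries 29.4, 27.6 and 31.5. The mean was 1.85-fold higher in CFPAC-1-GR (log2FC 0.85, standard error 0.07, adjusted p = 4.28e-05 from limma), but after the GC correction the direction reversed (log2FC -0.28, adjusted p = 0.015 from limma). EREG had a GC content of 36.1%, lower than all but 3.02% of genes averaging 1 FPKM or more. The log2 ratio of AREG to EREG was 0.60 ± 0.09 in BxPC-3 and 1.74 ± 0.05 in BxPC-3-GR (SD, n = 3, 2-sided exact permutation p = 0.10). It was 1.76 ± 0.07 in CFPAC-1 and 0.41 ± 0.35 in CFPAC-1-GR, and AREG has a GC content of 45.3%. The log2FC of AREG minus that of EREG in the CFPAC-1 pair was -1.30, and -0.34 after the GC correction.

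TGFA (chr2:70447280-70554193, minus strand), transforming growth factor alpha, had 11.9, 14.4 and 13.1 FPKM in BxPC-3 and 14.3, 13.8 and 13.3 in BxPC-3-GR. These groups overlapped and the log2FC of 0.07 (95% interval -0.12 to 0.26) did not pass (adjusted p = 0.48 from limma). In the CFPAC-1 libraries the values were 11.6, 11.4 and 11.6 FPKM and in CFPAC-1-GR 21.0, 20.8 and 22.1. The mean was 1.85-fold higher there (log2FC 0.83, standard error 0.06, adjusted p = 2.15e-05 from limma), with 0.49 after the GC correction.

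HBEGF (chr5:140332843-140346631, minus strand) encodes the heparin-binding ligand. It had 23.9, 23.3 and 20.9 FPKM in BxPC-3 and 19.1, 20.1 and 17.6 in BxPC-3-GR, and the groups did not overlap. HBEGF fell by 0.25 on the log2 scale (standard error 0.08, adjusted p = 0.031 from limma), a call lost with median-of-ratios scaling, no filter, all 12 libraries in 1 fit and without any of 4 libraries in turn (adjusted p from 0.052 to 0.117). CFPAC-1 had 6.24, 6.07 and 6.47 FPKM and CFPAC-1-GR had 7.70, 11.6 and 11.5, of which replicate 1 was the lowest. The log2FC was 0.61 (standard error 0.15, adjusted p = 0.0073 from limma), 0.90 after the GC correction, and 0.33 and 0.17 with median-of-ratios and upper-quartile scaling, where it did not pass (adjusted p = 0.076 and 0.33).

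BTC, betacellulin, had 3.83, 4.67 and 4.72 FPKM in BxPC-3 and 2.14, 2.14 and 2.34 in BxPC-3-GR. The mean in BxPC-3-GR was 0.501 of that in BxPC-3 without overlap, and BTC fell by 0.75 on the log2 scale (standard error 0.08, adjusted p = 0.000468 from limma). In CFPAC-1 it had 0.959, 0.739 and 0.777 FPKM and in CFPAC-1-GR 2.64, 2.44 and 2.52. The mean was 3.07-fold higher there (log2FC 0.95, standard error 0.07, adjusted p = 2.45e-05 from limma), and the log2FC was 0.18 after the GC correction, BTC having a GC content of 40.2%.

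NRG1 had 2.13, 2.07 and 1.81 FPKM in BxPC-3 and 1.61, 1.62 and 1.5 in BxPC-3-GR, and fell by 0.22 on the log2 scale (standard error 0.06, adjusted p = 0.021 from limma; 0.061 to 0.067 without any of 3 libraries in turn). The CFPAC-1 libraries had 0.932, 1.01 and 0.901 FPKM and the CFPAC-1-GR libraries 1.19, 1.68 and 1.70, again with replicate 1 lowest. Its log2FC in limma, 0.37 (adjusted p = 0.011, standard error 0.10), reversed to -0.43 after the GC correction (adjusted p = 0.017), and with upper-quartile scaling it was 0.10 (adjusted p = 0.37 from limma). EPGN, epigen, had 0.238, 0.684 and 0.887 FPKM in BxPC-3. It was listed at 0 in 2 BxPC-3-GR libraries (0.0137 in the other), in all 3 CFPAC-1 libraries and in 1 CFPAC-1-GR library (0.0804 and 0.0664 in the others). Without the filter its log2FC in the BxPC-3 pair was -0.65 (adjusted p = 0.032 from limma over 28777 genes).

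The share of each ligand in the summed FPKM of the 7 ligands was then compared, since it too is independent of library scaling. The shares are not corrected for GC content, which bears on the CFPAC-1 pair, where the log2FC of EREG reversed with that correction. The sum was 87.2 to 94.6 FPKM in BxPC-3, 98.9 to 107.0 in BxPC-3-GR, 88.6 to 90.3 for CFPAC-1 and 92.3 to 112.5 for CFPAC-1-GR. AREG made up 31.9% ± 0.556 of it in BxPC-3 (SD, n = 3) and 49.6% ± 1.12 in BxPC-3-GR, a difference of 17.8 points. In CFPAC-1 the share was 60.4% ± 0.645 and in CFPAC-1-GR 37.7% ± 4.59, lower by 22.7 points. EREG, TGFA and HBEGF made up the rest almost entirely. EREG went from 21.1% to 14.9% in the BxPC-3 pair and from 17.8% to 28.3% in the CFPAC-1 pair. HBEGF went from 25.0% to 18.4% and from 6.99% to 9.68%, and TGFA from 14.4% to 13.4% and from 12.8% to 20.4%. None of these resistant groups overlapped its parental group, and each exact permutation test gave the smallest p it allows (p = 0.10, 2-sided). The shares of a library add up to the whole, so a higher share of AREG lowers the others, and these tests are not independent. The FPKM of TGFA itself did not pass in the BxPC-3 pair. BTC, NRG1 and EPGN stayed under 6% each in every library. The summed ligand FPKM, which unlike the shares depends on library scaling, was higher by 11.7 FPKM in BxPC-3-GR without overlap (exact permutation p = 0.10), and by 14.3 and 10.03 with median-of-ratios and upper-quartile scaling. In CFPAC-1-GR it was higher by 15.6 FPKM as deposited (exact permutation p = 0.10), but the difference turned to -5.98 with overlap and to -18.7 under those scalings, so its direction there depended on the scaling.

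**Figure D4:**
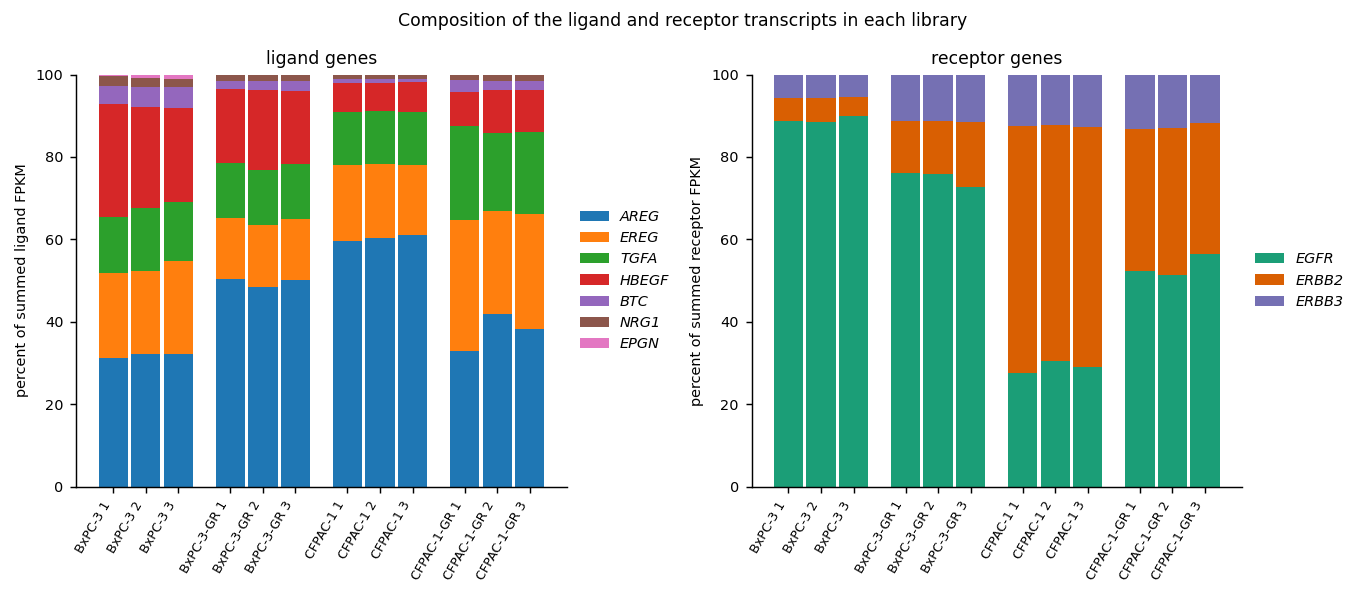
Percent of the summed FPKM of the 7 ligand genes (left) and 3 receptor genes (right) taken by each gene (vertical axis) in each of the 12 libraries (horizontal axis). AREG is about 31 to 32% of the ligands in BxPC-3 and 60 to 61% in CFPAC-1, and EGFR takes over 88% of the receptors in BxPC-3 and under 31% in CFPAC-1.

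The second question was how the lines differed before and after selection. In CFPAC-1 against BxPC-3, 3 members were higher (ERBB2, ERBB3, AREG), 5 were lower (EGFR, EREG, HBEGF, BTC, NRG1) and TGFA did not pass, against 39.4% and 44.8% of all genes. ERBB2 was SDE up and EGFR, HBEGF and BTC were SDE down, against 19.8% and 24.7%. BTC and NRG1 averaged under 1 FPKM in CFPAC-1 and passed the filter only through BxPC-3, so they add no support to these counts. The mean of ERBB2 was 7.83-fold higher in CFPAC-1, and that of EGFR was 4.26-fold, of HBEGF 3.63-fold and of BTC 5.34-fold higher in BxPC-3. After the GC correction the log2FC of BTC went from -1.56 to -0.74, under the SDE size, and that of AREG from 0.88 to 1.02, past it; ERBB2 (2.09), EGFR (-1.59) and HBEGF (-2.10) stayed SDE. The lower EREG in CFPAC-1 (log2FC -0.25) reversed after the GC correction (0.95) and with upper-quartile scaling (0.05), and the lower NRG1 (-0.62) reversed after the GC correction (0.24). In CFPAC-1-GR against BxPC-3-GR, ERBB2, EREG and TGFA were higher and EGFR, ERBB3 and HBEGF lower, against 37.3% and 28.0% of all genes, and 3 members did not pass. No member was SDE there by limma (6 of 9 had an unadjusted p below 0.05), against 10.3% and 6.80% of all genes SDE up and down. The log2FC of EGFR was -1.99 between the parental and -0.88 between the resistant lines, and that of ERBB2 was 2.59 and 0.82. The 2 comparisons have no libraries in common.

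The third question was whether the lines responded differently, tested as the interaction over all 12 libraries. Here 6 members had a higher response in the CFPAC-1 pair (EGFR, EREG, TGFA, HBEGF, BTC, NRG1) and 3 a lower one (ERBB2, ERBB3, AREG), against 44.9% and 31.6% of all genes. The difference passed 1 in size for EGFR, EREG and BTC upwards and for ERBB2 and AREG downwards, against 23.6% and 14.4%. It was -1.77 on the log2 scale for ERBB2 (standard error 0.12, adjusted p = 2.24e-07 from limma) and -1.16 after the GC correction. For AREG it was -1.24 (standard error 0.18, adjusted p = 7.25e-05 from limma) and -1.42 after the correction. For EREG, by contrast, it went from 1.16 to 0.07 (adjusted p = 0.51 from limma) with the correction, and for BTC from 1.70 to 0.90. BTC and NRG1 averaged 0.825 and 0.949 FPKM in CFPAC-1 and passed the filter through the other groups. They therefore add no support to the counts of different responses. With 44.9% of all genes in the first direction, these counts cannot be read as particular to the family.

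Of the other family members, ERBB4, the remaining receptor, did not exceed 0.0368 FPKM in any library. EGF had at most 0.0285 FPKM in the BxPC-3 pair, 0.0783 to 0.162 for CFPAC-1 and 0.514 to 0.705 for CFPAC-1-GR. NRG2 had at most 0.0118 FPKM in the BxPC-3 pair and 0.0996 to 0.360 in the CFPAC-1 pair, and NRG4 had 0.107 to 0.779 over all libraries. NRG3 was at 0.0265 FPKM or less in the BxPC-3 pair, but at 1.17, 1.42 and 1.34 in CFPAC-1 and 1.99, 1.41 and 2.0 in CFPAC-1-GR. Its log2FC in the CFPAC-1 pair was 0.27 (adjusted p = 0.049 from limma), with -0.44 after the GC correction.

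The counts of the lists that follow stand beside those of all genes, of which 26.2% rose and 31.5% fell in BxPC-3-GR (4.14% and 3.62% SDE; median log2FC -0.05) and 44.6% rose and 34.9% fell in CFPAC-1-GR (20.5% and 11.7% SDE; median 0.13). Of 6 genes of ligand shedding, 5 were tested, and 2 rose and 1 fell in BxPC-3-GR (median log2FC 0.17), and 3 rose and 2 fell in CFPAC-1-GR (median 1.30). ADAM9 rose in BxPC-3-GR from 27.3 ± 0.953 to 58.2 ± 4.39 FPKM (SD, n = 3), with a log2FC of 1.06, and in CFPAC-1-GR from 29.1 ± 1.25 to 95.0 ± 7.70, with 1.67. ADAM10, a protease that releases BTC and other ligands, rose in CFPAC-1-GR from 1.78 ± 0.0588 to 10.4 ± 1.34 FPKM (log2FC 2.03). After the GC correction the list's median in the CFPAC-1 pair was 0.22, ADAM10 had 0.69 and ADAM9 had 0.61, both under the SDE size.

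The list of receptor down-regulation held 11 genes that act on the inhibition, removal or stability of ERBB receptors. In BxPC-3-GR 6 rose, 3 fell and 2 did not pass (median 0.40, all genes -0.05), and 3 were SDE up, against 4.14% of all genes. LRIG1, which promotes ERBB receptor degradation, had 1.82 ± 0.112 FPKM in BxPC-3 and 6.90 ± 1.68 in BxPC-3-GR (log2FC 1.47, adjusted p = 0.000509 from limma). ERRFI1, an intracellular inhibitor of EGFR, had 10.7 ± 1.16 and 27.7 ± 2.90 (log2FC 1.30, adjusted p = 0.000147 from limma). EGFR itself did not pass in this pair, as given above. In CFPAC-1-GR 5 of 9 tested genes rose and 2 fell (median 0.29), with the deubiquitinase gene USP8 (log2FC 1.20) and the ubiquitin ligase CBL (1.10) SDE up, and CBLC (-2.15) and STUB1 (-1.36) SDE down. USP8 had 0.508 FPKM on average in CFPAC-1 and passed the filter only through CFPAC-1-GR (2.46), so it adds no support to that count. CBL had 0.963, 3.07 and 3.20 FPKM in the CFPAC-1 libraries, so 1 low parental library weighs on its log2FC. After the GC correction USP8 was at -0.09, CBL at 0.51, CBLC at -0.92 and STUB1 at -0.18. CBLC then passed limma's test (adjusted p = 7.89e-05), and USP8, CBL and STUB1 did not (adjusted p = 0.23, 0.14 and 0.12).

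Of 26 genes of signal transduction, 24 were tested in the BxPC-3 pair, where 10 rose, 7 fell and none was SDE by limma (median 0.03). In the CFPAC-1 pair 12 of 25 rose and 9 fell (median 0.04), and 10 were SDE up and 5 SDE down, against 20.5% and 11.7% of all genes. Of the 10, 4 averaged under 1 FPKM in CFPAC-1 and passed the filter only through CFPAC-1-GR. PTPN11, the SHP2 phosphatase, went from 8.31 ± 0.431 to 40.1 ± 4.29 FPKM (log2FC 2.14, 1.28 after the GC correction). The kinase genes MAP2K2 and AKT1 fell by 1.36 and 1.33 on the log2 scale, and had -0.49 and -0.62 after the correction. PTPN11 alone of the SDE genes of this list kept the SDE size after the correction, while a gene not SDE as deposited had 1.27. The list's median was then 0.18.

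Of 14 genes that MAPK signaling turns on, 4 rose, 3 fell and 7 did not pass in BxPC-3-GR (median -0.06), and 3 rose, 6 fell and 5 did not pass in CFPAC-1-GR (median -0.27). FOSL1, a subunit of AP-1, fell in both. It went from 30.7 ± 2.80 to 8.12 ± 2.81 FPKM in the BxPC-3 pair (log2FC -1.85, adjusted p = 0.00111 from limma) and from 85.3 ± 12.4 to 19.8 ± 1.63 in the CFPAC-1 pair (log2FC -2.05, -0.99 after the GC correction). EGR1 fell in BxPC-3-GR, by 1.07 on the log2 scale, and rose in CFPAC-1-GR (log2FC 0.59, adjusted p = 0.0134 from limma; 1.25 after the GC correction). The phosphatase gene DUSP5 rose in BxPC-3-GR, by 0.63 on the log2 scale (limma's adjusted p = 0.00208). In CFPAC-1-GR it fell by 1.93 and the inhibitor gene SPRED1 had a log2FC of 1.57, with -1.19 and 0.43 after the correction. Members and lists were read at the level of transcripts, and protein and receptor activity were not measured in these files.

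**Figure D5:**
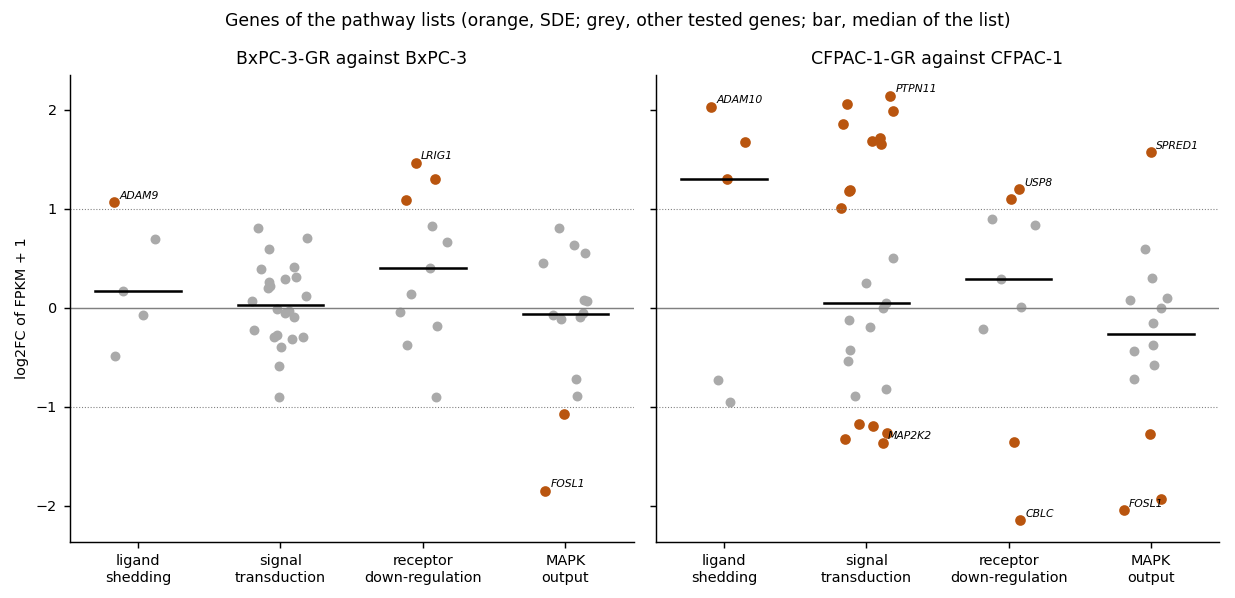
log2FC (vertical axis, log2 of FPKM + 1, resistant against parental) of each tested gene of 4 pathway lists (horizontal axis), in the BxPC-3 pair (left) and the CFPAC-1 pair (right). Orange points are SDE genes, of which the one with the largest change in each direction is named, grey points the other tested genes, and bars the list medians; the shedding list has its median at 0.17 on the left and 1.30 on the right.

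The genes most like EGFR and AREG in pattern were sought by Pearson's r of log2(FPKM + 1) over the 12 libraries, among 12209 other genes averaging 1 FPKM or more. The 12 libraries form 4 groups, so r mainly compares 4 group means, and it is given as a description. EGFR was most like WTAP (r = 0.995), ZADH2 (0.995) and PTPRE (0.995). WTAP had mean FPKM values of 11.8 in BxPC-3, 11.2 in BxPC-3-GR, 2.34 in CFPAC-1 and 5.67 in CFPAC-1-GR. AREG was most like RPS20 (r = 0.956), GTF2IRD1 (0.951) and ZFP41 (0.950), and RPS20 had 32.4, 56.8, 56.0 and 44.6 FPKM in the same order.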

How the data were processed

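Total RNA of the 12 libraries was sequenced on an Illumina instrument. Per the labels and the submitters' processing notes, the authors used Trimmomatic 0.27, FastQC 0.10.1 and TopHat2 2.0.8, and the reference was GRCh38 with Ensembl 91 (the notes also name hg19); the counting program is not given in the sources used here. The deposited values are FPKM per gene, and gene names and positions came from the deposited table. The precision of low values is limited by a depth of 12700000 to 25300000 fragments per library.

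Genes averaging 1 FPKM or more over the libraries compared were tested as log2(FPKM + 1) with limma 3.58.1 (R 4.3.3) without a replicate block, and p-values were adjusted by Benjamini-Hochberg over all genes tested. The procedure was tested on simulated data. Shares and ratios were compared by 2-sided exact permutation (scipy 1.17.1). GC content was that of the longest transcript and length that of joined exons in GENCODE 29, which held 58039 of the 58302 genes; the correction was a spline with 5 degrees of freedom on each. The RefSeq table held promoter windows for 8 of the 10 genes. The members and lists were chosen with earlier results of these data known. All 10 genes are named; of the pathway lists, every other family member and the 2 SDE genes with the largest change in each direction and line, except 1 that is not reported here; and the 3 genes most correlated with the top receptor and ligand. Alternatives were a pseudocount of 0.1, no filter, median-of-ratios scaling, the correction for GC content and length, the replicate block, both together, all 12 libraries in 1 fit and each library left out; upper-quartile scaling was added after the data were seen.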

Additional observations from a re-analysis of the deposited data

Results flagged for a closer look

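EGFR, ERBB2, AREG, EREG and BTC differed between the 2 lines in their response to GEM selection by more than 1 on the log2 scale in the interaction term of limma over all 12 libraries. The log2FC in the CFPAC-1 pair minus that in the BxPC-3 pair was 1.12 for EGFR, -1.77 for ERBB2, -1.24 for AREG, 1.16 for EREG and 1.70 for BTC. With the correction for GC content and length, the same values were 0.82, -1.16, -1.42, 0.07 and 0.90. ERBB2, AREG and HBEGF then passed 1 in size, HBEGF with 1.11. BTC averaged 0.825 FPKM in CFPAC-1, under the filter value of 1 FPKM, and adds no support to this list.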

How the results depend on the processing

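Of 675 recomputed log2FC values, 617 kept their direction and side of the threshold, 30 lost the call, 9 gained it and 19 reversed. The number of SDE members was 1 in BxPC-3-GR and 2 with a pseudocount of 0.1. In CFPAC-1-GR it was 1, with 2 at a pseudocount of 0.1 and 0 with median-of-ratios scaling and with the GC content and length correction, alone or with the replicate block; leaving out 1 library gave 0 to 1, with 0 without CFPAC-1-GR replicate 3. Between the resistant lines it was 0, with 2 under median-of-ratios and 1 under upper-quartile scaling. For the different response it was 5, and 3 with the GC correction, alone or with the block.

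The GC correction, alone and with the replicate block, reversed EREG (-0.28) and NRG1 (-0.43) in the CFPAC-1 pair, EREG (0.95), TGFA (0.16) and NRG1 (0.24) between the parental lines, NRG1 (0.060) between the resistant lines and the NRG1 response (-0.089). Median-of-ratios scaling reversed ERBB3 in the CFPAC-1 pair (-0.0746). Upper-quartile scaling, which was chosen after seeing the data, reversed it (-0.23), and EREG (0.055) and TGFA (0.12) between the parental lines. Leaving out CFPAC-1-GR replicate 1 reversed NRG1 between the resistant lines (0.064); the range over libraries left out there was -0.087 to 0.064. Both scalings, tried on the summed ligand FPKM after the data were seen, reversed its difference in the CFPAC-1 pair (-5.98 and -18.7 FPKM). The cause was not tested. Same-numbered libraries did not deviate together over all genes (correlations -0.14 to 0.10). These correlations cannot exclude that libraries were paired or handled together by number. IER3, given below, was highest in replicate 3 of BxPC-3, CFPAC-1 and CFPAC-1-GR, but not of BxPC-3-GR. The replicate block alone left ERBB3 in the CFPAC-1 pair without the call (adjusted p = 0.0955 from limma) and changed no other call of a member. Depth limits EPGN most, where fewer than 1 FPKM was measured in every library.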

Other observations

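IER3 and MYC of the MAPK list varied over 10-fold among libraries of 1 group and were singled out after their values were seen. IER3 had 0.200, 0.708 and 11.5 FPKM in BxPC-3, 0.278, 0.428 and 27.9 in CFPAC-1 and 0.389, 0.608 and 16.1 in CFPAC-1-GR. MYC had 0.573, 0.574 and 8.61 FPKM in BxPC-3-GR. No member varied in this way, except EPGN at its low values.

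Within 1 Mb of the AREG start, 7 genes other than members were tested in BxPC-3-GR, of which 3 rose and 2 fell (median log2FC 0.16), and 6 in CFPAC-1-GR, of which 4 rose (median 0.79, or 0.30 after the GC correction), against 26.2% and 44.6% of all genes that rose and 31.5% and 34.9% that fell. Most of them encode CXCL chemokines, and were singled out after the values were seen.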
